A study of Mus musculus with 25 samples.

Results

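The left ventricle of GPx4+/- mice was compared between a high fat high sucrose diet (HFHS) and a control diet (CNTL) in 10 of the 25 myocardial mRNA libraries of the study, 5 mice on each diet, chosen by their labelled genotype and treatment. GPx4+/- mice carry 1 disrupted copy of the gene for glutathione peroxidase 4 in every tissue and from conception, and the line was maintained by backcross with C57BL6/J. All 10 were males that entered the diets at an age of 8 to 10 weeks and ate them for 16 weeks. In HFHS, lard fat gave 35.5%, cholesterol 1.5% and sucrose 38% of daily kcal, whereas CNTL drew 6% of kcal from fat and about 75% from starch-based carbohydrate. Neither group received carnosine. Mice were killed after an 8 h fast and an injection of dextrose or saline, and which of these each mouse received is not given in the sources used here, so its part in the values below was not tested. The 5 WT CNTL and 5 WT HFHS littermates set the diet effect of the GPx4+/- hearts beside that of WT hearts. They also entered the scaling, the filter on low values and the estimate of spread behind the adjusted p-values given for GPx4+/- hearts.

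Glutathione peroxidase 4 is a selenoenzyme that reduces lipid hydroperoxides inside membranes, and its loss opens cells to ferroptosis, an iron-dependent death by lipid peroxidation. Iron enters cardiomyocytes mainly through the transferrin receptor, whose mRNA is stabilized by iron regulatory proteins when cytosolic iron is low. The heart draws most of its energy from fatty acids, which are bound by fatty acid binding proteins, carried into mitochondria by the carnitine shuttle and broken down by beta-oxidation, and many of these genes are targets of the nuclear receptor PPAR alpha.

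Values are TPM, a relative abundance corrected for transcript length, summed over the transcripts of a gene and divided by a scaling factor per library, here called scaled TPM. The factors of the 10 libraries lay between 0.885 and 1.090, and mitochondrial mRNAs made up 33.0% to 48.7% of their TPM, with medians of 37.1% in CNTL and 40.2% in HFHS and the highest share in HFHS replicate 2. Between 11729 and 12305 genes per library reached 1 TPM. TPM keeps no read depth, so no counting error can be given, and the spread between mice is the measure of error. Ventricular cardiomyocyte markers summed to 48529.7 to 59995 scaled TPM, and the fast skeletal myosins Myh1, Myh2 and Myh4 stayed under 0.1 in all 10 mice. Atrial cardiomyocyte markers did not stay low throughout. Their summed level was 7608 in CNTL replicate 1, 1561 in CNTL replicate 2 and 2825 in HFHS replicate 4, against 180.2 to 295 in the other CNTL mice and 78.4 to 169.9 in the other HFHS mice. Albumin and other hepatocyte markers summed to 1355 in CNTL replicate 2 and to 119 and 75.2 in HFHS replicates 1 and 3, against 2.15 to 24.3 elsewhere. Counts of genes are therefore also given without the 3 mice with raised atrial markers. In tissue RNA of this kind, fewer cells of a type and less RNA per cell cannot be told apart.

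**Figure D1:**
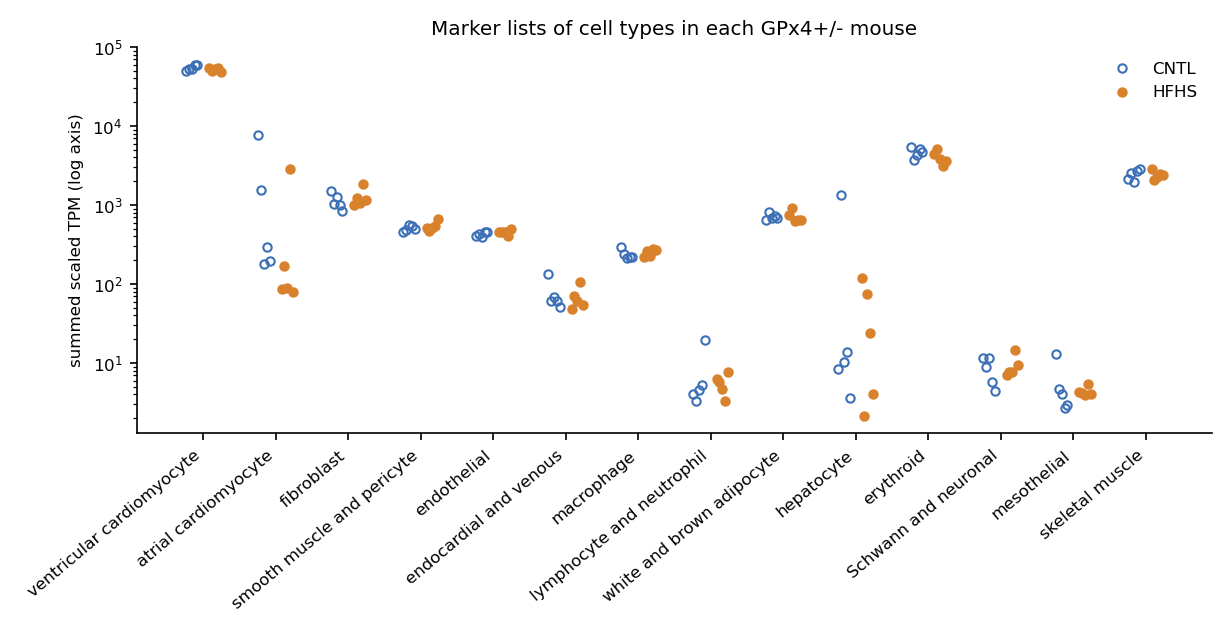
Summed scaled TPM (log axis) of marker genes for 14 cell types in each GPx4+/- mouse, open circles for the 5 CNTL mice and filled circles for the 5 HFHS mice. Ventricular markers lie near the same level in all mice, whereas atrial markers are raised in 2 CNTL mice (7608 and 1561) and 1 HFHS mouse (2825).

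The disrupted gene was checked first. Gpx4, a protein-coding gene (chromosome 10 from 80047166 to 80056439, coordinates here and below on GRCm38), was measured at 274, 317, 251, 357 and 331 in the CNTL mice and 383, 324, 345, 363 and 344 in the HFHS mice, each list in the order of replicates 1 to 5. The groups overlapped, since CNTL replicates 4 and 5 lay within the HFHS range. The HFHS mean exceeded the CNTL mean by 45.9 scaled TPM (two-sided exact permutation p = 0.0794, where 0.00794 is the smallest that 5 mice against 5 allow). Without CNTL replicate 4 the difference was 58.6 (exact permutation p = 0.0238), and in TPM as deposited it was 21.9 (exact permutation p = 0.444). All 10 mice were under the WT means of 670.4 ± 47.2 in CNTL and 712 ± 67.4 in HFHS (SD, n = 5 each). Its reads may be shared with processed pseudogenes.

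The diet changed 400 of 11984 genes tested in GPx4+/- hearts at an adjusted p under 0.05 (3.34%), of which 261 were higher on HFHS (2.18%) and 139 lower (1.16%). Such genes are called below, and counts in gene lists, some of which share genes, are to be read against these shares. No list was tested as a group. Of all genes 49.6% had a positive log2 fold change, and 65.2% of the called genes were higher. In 536 genes (4.47%) the 5 HFHS mice did not overlap the 5 CNTL mice, and 272 of the 400 were among these. Most changes were small, with a median size of 0.34 on the log2 scale among called genes, and 13 exceeded 1. Of the called genes 392 were protein coding and 8 were pseudogenes. The balance of direction rested on the scaling. Higher genes were 261 of 400 with scaled TPM but 37 of 424 with TPM as deposited, where the median log2 fold change of all genes was shifted by -0.10. Without the 3 mice with raised atrial markers 218 genes were called, 126 higher and 92 lower, and 167 of them were among the 400. Leaving out CNTL replicate 1, 3 or 4 gave 192, 255 or 226 calls, and leaving out HFHS replicate 1 or 5 gave 214 or 191.

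The genes with the strongest evidence for a rise were led by an ion channel and a collagen enzyme. Kcnj14 (ENSMUSG00000058743.6, chromosome 7 from 45816460 to 45824782), which encodes an inward rectifier potassium channel subunit, was measured at 0.458, 0.596, 0.481, 0.506 and 0.228 in the CNTL mice and 2.21, 1.51, 1.48, 2.10 and 1.86 in the HFHS mice (scaled TPM). Every HFHS mouse was above every CNTL mouse, although the level stayed low (log2 fold change 1.29, SE 0.142, adjusted p = 0.000256). P4ha2 (ENSMUSG00000018906.14, chromosome 11 from 54100095 to 54131665), an alpha subunit of collagen prolyl hydroxylase, was measured at 26.1, 28.7, 22.9, 24.0 and 26.8 in the CNTL mice and 36.9, 33.9, 40.2, 35.3 and 37.9 in the HFHS mice, again without overlap (log2 fold change 0.51, SE 0.060, adjusted p = 0.000299). Scn4b, a beta subunit of voltage-gated sodium channels, was measured at 19.0, 23.7, 18.0, 20.0 and 19.0 in the CNTL mice and 48.0, 41.4, 37.6, 31.2 and 40.2 in the HFHS mice, and its lowest HFHS mouse was above its highest CNTL mouse (log2 fold change 0.97, SE 0.138, adjusted p = 0.00135). Nkain1, which encodes a partner of the sodium pump, was about as strongly changed (1.92-fold, adjusted p = 0.00127), with 4.53 to 6.03 in the CNTL mice and 8.62 to 13.4 in the HFHS mice.

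Slc30a9, a zinc transporter gene, was measured at 61.3, 67.0, 64.9, 62.5 and 69.5 in the CNTL mice and 76.8, 85.0, 82.2, 81.7 and 86.1 in the HFHS mice, a small but even rise (log2 fold change 0.34, SE 0.046, adjusted p = 0.00114). Atf6, a transcription factor that senses unfolded protein in the endoplasmic reticulum, was measured at 26.9, 28.3, 24.5, 26.2 and 29.4 in the CNTL mice and 34.6, 37.5, 38.2, 35.0 and 38.2 in the HFHS mice and did not overlap between diets (log2 fold change 0.43, SE 0.066, adjusted p = 0.00222). Dhdds, which makes the dolichol precursor for protein glycosylation, ranged over 14.4 to 18.1 in the CNTL mice and 19.2 to 24.0 in the HFHS mice (1.34-fold, adjusted p = 0.00241). It lost its call only with TPM as deposited, among the 20 other ways of processing that were run. The remaining leading genes were Vwa7, Nacc2 and Vwa8, of which Vwa8 encodes a mitochondrial ATPase. Vwa7 rose 1.43-fold (adjusted p = 0.00114), Nacc2 1.40-fold (adjusted p = 0.00129) and Vwa8 1.41-fold (adjusted p = 0.00222), each without overlap between the diets.

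**Figure D2:**
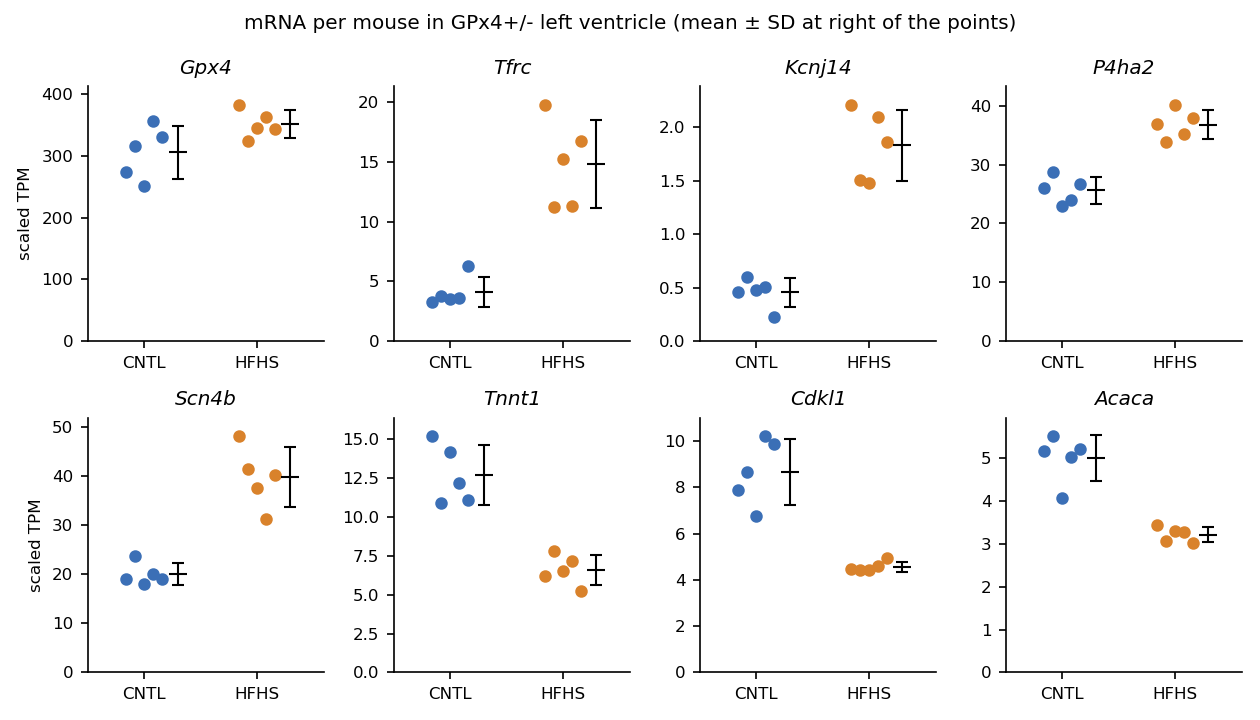
Scaled TPM (vertical axes from 0) of 8 genes in each GPx4+/- mouse, 5 on CNTL and 5 on HFHS, with the mean and SD of each group to the right of its points. The 2 diets overlap for Gpx4 and do not overlap for the 7 others, of which Tfrc, Kcnj14, P4ha2 and Scn4b were higher and Tnnt1, Cdkl1 and Acaca lower on HFHS.

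Among genes that fell, the smallest p belonged to Tnnt1 (ENSMUSG00000064179.13, chromosome 7 from 4504570 to 4516382), the slow skeletal form of troponin T. Its scaled TPM was 15.2, 10.9, 14.2, 12.2 and 11.1 in the CNTL mice and 6.22, 7.82, 6.50, 7.15 and 5.27 in the HFHS mice, so that all HFHS mice lay under all CNTL mice (log2 fold change -0.90, SE 0.123, adjusted p = 0.00114). Cdkl1, a cyclin-dependent kinase-like gene, was measured at 7.88, 8.64, 6.74, 10.2 and 9.87 in the CNTL mice and 4.46, 4.42, 4.42, 4.62 and 4.93 in the HFHS mice, with almost no spread on HFHS (log2 fold change -0.84, SE 0.135, adjusted p = 0.00256). Gcat, which encodes an enzyme of threonine breakdown, was measured at 11.6, 11.5, 13.0, 11.8 and 11.0 in the CNTL mice and 6.23, 5.17, 8.23, 8.14 and 6.91 in the HFHS mice (log2 fold change -0.74, SE 0.107, adjusted p = 0.00149). Slc16a7, a transporter of pyruvate and lactate, fell most among this group, with 3.37, 3.97, 5.14, 5.59 and 6.33 in the CNTL mice and 1.48, 2.47, 1.47, 2.42 and 2.69 in the HFHS mice (log2 fold change -1.05, SE 0.183, adjusted p = 0.00473).

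Other genes among the 12 lower ones with the smallest p concerned chromatin, RNA and membranes. Ezh1, a histone methyltransferase of the Polycomb complex, fell to 0.804 of its CNTL level (adjusted p = 0.00304), with 16.3 to 18.0 in the CNTL mice and 12.3 to 15.0 in the HFHS mice. Rbmx, an RNA-binding protein gene, fell to 0.787 (adjusted p = 0.00169) and Zrsr1, a splicing factor gene, to 0.674 (adjusted p = 0.00456). Ehd4, a gene of endocytic membrane traffic, fell to 0.751 (adjusted p = 0.00304) and Plscr2, a phospholipid scramblase gene, to 0.691 (adjusted p = 0.00352). Sra1 fell to 0.781 (adjusted p = 0.00402). These 6 genes were without overlap between the diets.

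By size of change the called genes were led by AC122306.1, Tfrc, Edn3, BC048679 and Kcnj14 upward and by Gm15626, Slc16a7, Scgb1c1, Abat and Gm47845 downward. AC122306.1, Gm15626 and Gm47845 are processed pseudogenes, whose reads may be shared with their parent genes. AC122306.1 was at 0 in 2 CNTL mice and kept its call in 1 of 10 fits with 1 mouse left out, and Gm47845 kept its own in 2 of 10. Edn3, which encodes 1 of the endothelin peptides, was measured at 0.933, 1.17, 0.178, 1.34 and 0.531 in the CNTL mice and 2.01, 3.52, 2.91, 2.65 and 3.39 in the HFHS mice (log2 fold change 1.42, SE 0.299, adjusted p = 0.0128). Scgb1c1, a secretoglobin gene, was measured at 15.9, 20.9, 23.2, 29.3 and 24.3 in the CNTL mice and 15.6, 9.00, 9.06, 10.7 and 10.2 in the HFHS mice (log2 fold change -1.02, SE 0.194, adjusted p = 0.00665). HFHS replicate 1 stood close to the CNTL range for Scgb1c1, while the other 4 HFHS mice were well under it. Abat, the transaminase that breaks down GABA, was measured at 9.29, 7.06, 4.35, 6.48 and 4.15 in the CNTL mice and 2.60, 2.45, 1.71, 4.83 and 2.72 in the HFHS mice (log2 fold change -1.01, adjusted p = 0.0494), with overlap through HFHS replicate 4 and a call in 2 of 10 fits with 1 mouse left out.

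Tfrc (ENSMUSG00000022797.16, chromosome 16 from 32608920 to 32632794), the transferrin receptor, was measured at 3.27, 3.78, 3.50, 3.58 and 6.29 in the CNTL mice and 19.8, 11.2, 15.3, 11.3 and 16.8 in the HFHS mice. The lowest HFHS mouse was above the highest CNTL mouse, which was CNTL replicate 5 and stood apart from the other 4. The rise was 3.36-fold (log2 fold change 1.75, SE 0.279, adjusted p = 0.00243), and it held in each of the 20 other ways of processing, with a log2 fold change between 1.64 and 1.90. Of 26 genes of iron uptake, storage and export that were tested, Tfrc alone was called (3.85%, near the 3.34% of all genes), and their median log2 fold change was -0.04 against -0.00 over all genes. Ferritin heavy chain (Fth1) was measured at 1382, 1459, 1339.9, 1492 and 1464 in the CNTL mice and 1483, 1463, 1545, 1476 and 1459.7 in the HFHS mice and ferritin light chain (Ftl1) had 322 to 425 in the CNTL mice and 314 to 399 in the HFHS mice. Both overlapped between diets, with log2 fold changes of 0.06 (SE 0.055, adjusted p = 0.631) and -0.12 (SE 0.092, adjusted p = 0.513). Reads of both ferritin genes may be shared with their processed pseudogenes. Erythroid precursors also express Tfrc, and erythroid markers had a summed scaled TPM of 3741 to 5398 in CNTL and 3082 to 5086 in HFHS. Of 6 tested 0 were called by limma (0 at an unadjusted p under 0.05), and all 6 had a negative log2 fold change, with a median of -0.24. Whether such precursors had a part in the Tfrc values was not tested.

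The sequence that couples Tfrc and the ferritins to iron is the iron-responsive element, a hairpin read by the iron regulatory proteins. It protects the mRNA in a 3′ UTR and blocks translation in a 5′ UTR. The matches in Tfrc and the ferritins are shown because these are the best known mRNAs that carry it. A search of the listed transcripts, on the transcript strand, took C, then 5 bases, the loop CAGTGN and 5 bases that pair with the first 5 (G with T allowed), and the loop is in capitals. Sequences are from GENCODE M21 transcripts on GRCm38.
Tfrc, 3′ UTR, chr16:32631225-32631241, plus strand: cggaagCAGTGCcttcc
Tfrc, 3′ UTR, chr16:32631604-32631620, plus strand: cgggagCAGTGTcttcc
Tfrc, 3′ UTR, chr16:32631669-32631685, plus strand: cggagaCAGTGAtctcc
Tfrc, 3′ UTR, chr16:32631716-32631732, plus strand: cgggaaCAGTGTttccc
Fth1, 5′ UTR, chr19:9982738-9982754, plus strand: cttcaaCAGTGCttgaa
Ftl1, 5′ UTR, chr7:45459785-45459801, minus strand: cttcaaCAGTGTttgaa
Tfrc held 4 such patterns in its 3′ UTR and no other gene held 3 or more in its UTRs. The pattern stood in a UTR of 123 of 11977 genes (1.03%), so a match alone is a description and not evidence of a working element. Whether iron regulatory proteins had a part in the Tfrc values was not tested.

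Of 26 ferroptosis regulators tested 2 were called (7.69%, against 3.34% of all genes), Tfrc again and Dhodh. Dhodh, the mitochondrial enzyme that reduces ubiquinone and can restrain lipid peroxidation, was measured at 11.9, 12.5, 13.1, 14.5 and 13.8 in the CNTL mice and 12.8, 8.79, 10.6, 11.5 and 9.27 in the HFHS mice (log2 fold change -0.31, SE 0.083, adjusted p = 0.0465). It overlapped through HFHS replicate 1 and kept its call in 3 of 10 fits with 1 mouse left out. The median log2 fold change of these regulators was 0.06.

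Of 28 genes of fatty acid oxidation tested, 7 were called, all higher (25.0%, against 3.34% of all genes), and 22 had a positive log2 fold change, with a median of 0.21 against -0.00 over all genes. Fatty acid uptake and binding had 4 of 15 called, all higher (26.7%), with a median of 0.01. The calls of the oxidation list depended on the mice included. They numbered 0 without the 3 mice with raised atrial markers, where the median was 0.15, 4 without CNTL replicate 1, CNTL replicate 4 or HFHS replicate 1, and 11 without CNTL replicate 3. In TPM as deposited 1 was called higher and 1 lower, and the median was 0.10 against -0.10 over all genes.

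At the entry step, Fabp3, the fatty acid binding protein of heart, was measured at 4298, 4583, 4498, 4427 and 4456 in the CNTL mice and 6537, 5956, 5803, 5811 and 5583 in the HFHS mice (chromosome 4 from 130308595 to 130315463). This abundant mRNA did not overlap between diets (log2 fold change 0.41, SE 0.057, adjusted p = 0.00114). Dbi, which encodes the acyl-CoA binding protein, was measured at 182, 181, 210.4, 159 and 176 in the CNTL mice and 277, 237, 273, 264 and 242 in the HFHS mice and did not overlap either (log2 fold change 0.51, SE 0.075, adjusted p = 0.00169). Cd36, a fatty acid transporter, was measured at 914, 1037, 1064, 892 and 985 in the CNTL mice and 1162, 1421, 1159.9, 1061 and 1158 in the HFHS mice. Its groups overlapped at CNTL replicate 3 and HFHS replicate 4, and HFHS replicate 2 stood above the rest (log2 fold change 0.28, SE 0.072, adjusted p = 0.0394). It kept its call in 3 of 10 fits with 1 mouse left out. Lmf1, which matures lipoprotein lipase, rose 1.20-fold (adjusted p = 0.0242) with 16.4 to 20.0 in the CNTL mice and 20.2 to 24.0 in the HFHS mice, and kept its call in 5 of 10.

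In the carnitine shuttle, Cpt2 was measured at 135, 127, 157, 122 and 129 in the CNTL mice and 191, 161, 180.2, 170.4 and 159 in the HFHS mice and Slc25a20, the carnitine-acylcarnitine carrier, had 120.0 to 160.4 in the CNTL mice and 156 to 195 in the HFHS mice. Their log2 fold changes were 0.37 (SE 0.070, adjusted p = 0.00666) and 0.36 (SE 0.078, adjusted p = 0.0149), and CNTL replicate 3 was the highest CNTL mouse for both, within the HFHS range for Slc25a20. The outer membrane step, Cpt1b, was not called (0.16, adjusted p = 0.0781). In the beta-oxidation cycle, Decr1, which prepares unsaturated acyl chains, was measured at 157, 163, 207, 146 and 172 in the CNTL mice and 257, 230.2, 248, 241 and 221 in the HFHS mice (log2 fold change 0.51, SE 0.094, adjusted p = 0.00664). Acads, the dehydrogenase of short acyl chains, was measured at 159, 164, 178, 172 and 176 in the CNTL mice and 238, 197, 229.6, 233 and 204 in the HFHS mice (log2 fold change 0.37, SE 0.070, adjusted p = 0.00665). Both were free of overlap. Etfdh, Acadl and Acadm, which feed electrons from long and medium acyl chains to the respiratory chain, were called at 0.31, 0.27 and 0.26 (adjusted p = 0.0194, 0.032 and 0.049), in 7 of 10, 4 of 10 and 2 of 10 fits with 1 mouse left out. The very long chain dehydrogenase Acadvl (0.21, adjusted p = 0.133) and the trifunctional protein subunit Hadha (0.23, adjusted p = 0.134) did not pass. Cpt1b, Etfdh, Acadl, Acadm, Acadvl and Hadha were chosen after their values were seen.

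Targets of PPAR alpha did not move as 1 group. Of 22 tested, 6 (27.3%) were called, all higher (Fabp3, Slc25a20, Cd36, Ech1 and Acadm among them), 14 had a positive and 8 a negative log2 fold change, and the median was 0.14. The count fell to 2 without CNTL replicate 1, 4 or 5, without HFHS replicate 1, 3 or 5 and without the 3 mice with raised atrial markers. Pdk4, Ucp3 and Angptl4, targets that respond strongly to fasting, had negative log2 fold changes and did not pass. Pdk4, the kinase that shuts pyruvate oxidation, was measured at 405, 439.9, 375, 183 and 241 in the CNTL mice and 367, 701, 146, 209 and 157 in the HFHS mice, and HFHS replicate 2, the library with the highest mitochondrial share, was the highest of all 10 (log2 fold change -0.25, SE 0.393, adjusted p = 0.799). Ucp3 had 42.8 to 73.1 in the CNTL mice and 23.6 to 75.6 in the HFHS mice (log2 fold change -0.55, adjusted p = 0.282) and Angptl4 had 2.99 to 11.1 in the CNTL mice and 3.44 to 16.1 in the HFHS mice (log2 fold change -0.18, adjusted p = 0.862), both highest in HFHS replicate 2. Without the 3 mice with raised atrial markers Pdk4 and Angptl4 turned to 0.12 and 0.07. These 3 genes were chosen after their values were seen. Of 15 PPAR and PGC-1 regulators, 1 was called (6.67%), the retinoid receptor Rxrg (0.30, adjusted p = 0.0468, called in 2 of 10 fits with 1 mouse left out).

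**Figure D3:**
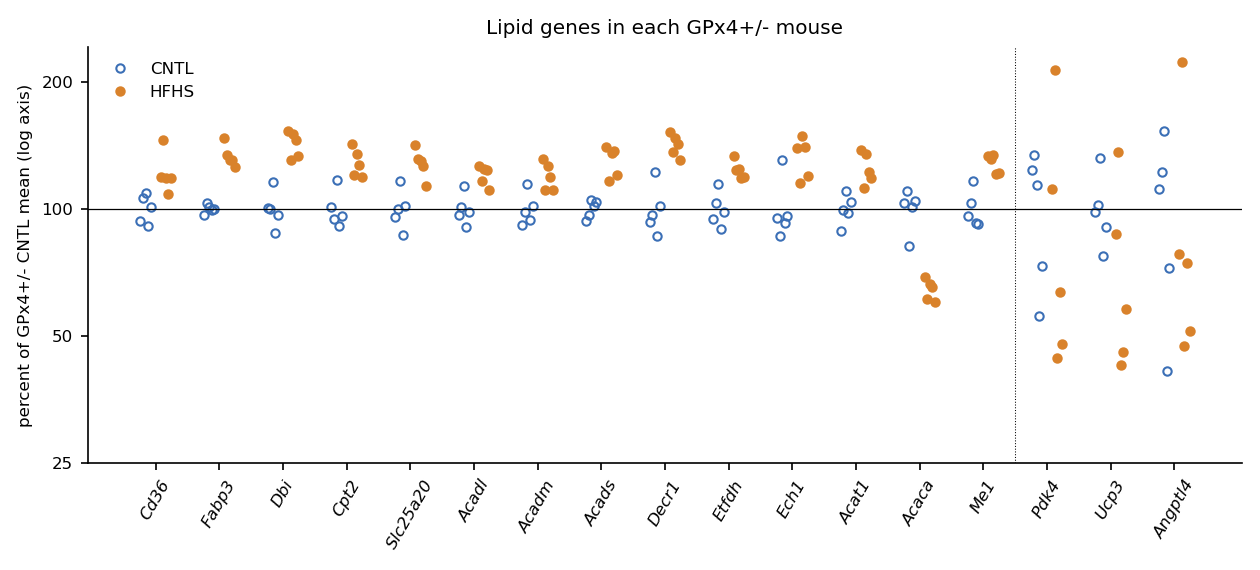
Level of 17 lipid genes in each GPx4+/- mouse as a percent of the CNTL mean (log axis), open circles for CNTL and filled circles for HFHS. The 14 genes left of the dotted line were called, 13 higher and Acaca lower, whereas Pdk4, Ucp3 and Angptl4 to its right were not called and overlap between the diets.

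Of 6 ketone genes 2 were called, both higher (33.3%, against 3.34% of all genes). Acat1, a mitochondrial thiolase, was measured at 198, 222, 246, 218 and 232 in the CNTL mice and 308, 250.2, 300.2, 273 and 264 in the HFHS mice (log2 fold change 0.32, SE 0.070, adjusted p = 0.0155). Of 25 genes of lipid droplets and triglyceride turnover, 2 were called, both higher (8.00%). They were Cidea, a droplet protein also listed as an adipocyte marker (0.37, adjusted p = 0.0128), and Abhd5, the activator of adipose triglyceride lipase (0.22, adjusted p = 0.0358, called in 2 of 10 fits with 1 mouse left out). The other 5 adipocyte markers tested were not called, and Ucp1 was under 0.1 scaled TPM in all mice. Acaca, the acetyl-CoA carboxylase of fatty acid synthesis, was measured at 5.16, 5.51, 4.08, 5.04 and 5.22 in the CNTL mice and 3.44, 3.06, 3.31, 3.27 and 3.01 in the HFHS mice, lower in every HFHS mouse (log2 fold change -0.56, SE 0.090, adjusted p = 0.00243). Me1, the malic enzyme that supplies NADPH, was measured at 65.7, 70.8, 79.9, 63.3 and 63.0 in the CNTL mice and 91.4, 89.8, 91.9, 82.9 and 83.3 in the HFHS mice, higher in every HFHS mouse (log2 fold change 0.36, SE 0.072, adjusted p = 0.00978). No gene among 24 of sterol synthesis and uptake was called by limma, with 2 at an unadjusted p under 0.05 and a median of -0.04, although HFHS carried added cholesterol.

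Glucose genes showed 4 calls of 40, all higher (10.0%, against 3.34% of all genes), with a median of 0.02. Ppp1r3c, a glycogen-targeting subunit of protein phosphatase, was measured at 33.5, 43.5, 21.2, 32.2 and 32.5 in the CNTL mice and 59.6, 48.7, 52.8, 67.5 and 49.0 in the HFHS mice and did not overlap (log2 fold change 0.78, SE 0.155, adjusted p = 0.00852). Pfkl, the liver form of phosphofructokinase, was measured at 55.6, 54.3, 44.9, 55.7 and 56.5 in the CNTL mice and 74.9, 62.8, 77.0, 71.0 and 69.7 in the HFHS mice, with CNTL replicate 3 lowest (log2 fold change 0.41, SE 0.068, adjusted p = 0.00304). Ldha, a lactate dehydrogenase subunit, rose 1.24-fold (adjusted p = 0.0188) and Pdk1, another pyruvate dehydrogenase kinase, 1.18-fold (adjusted p = 0.0293, called in 3 of 10 fits with 1 mouse left out). The insulin-responsive transporter Slc2a4 had 239 to 254 in the CNTL mice and 200.2 to 253 in the HFHS mice (adjusted p = 0.303) and Slc2a1 8.60 to 10.3 in the CNTL mice and 6.18 to 9.40 in the HFHS mice (adjusted p = 0.0691), both named after their values were seen. This list gave 1 higher and 4 lower calls in TPM as deposited. In insulin and IGF signalling 1 of 33 was called (3.03%), Trib3, an inhibitor of Akt (0.39, adjusted p = 0.0406, called in 3 of 10).

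No subunit gene of the respiratory chain or ATP synthase was called by limma. Of 37 complex I genes 0 were called, with 1 at an unadjusted p under 0.05 and a range of -0.08 to 0.15 on the log2 scale. Of 27 genes of complexes II to IV 0 were called, with 1 at an unadjusted p under 0.05, and of 17 ATP synthase genes 0, with 2. The 13 mRNAs of the mitochondrial genome were each positive, between 0.11 and 0.35 with a median of 0.22, and 0 were called (3 at an unadjusted p under 0.05). Under quantile normalization their median was 0.00. The 81 cytosolic ribosomal protein genes had a median of -0.06 with 0 called and 9 at an unadjusted p under 0.05.

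Of 31 peroxidases, superoxide dismutases and thioredoxins, 3 were called higher and 1 lower (12.9% called, against 3.34% of all genes), with a median of 0.04. Sod3, the extracellular superoxide dismutase, was measured at 11.7, 13.5, 11.1, 11.8 and 10.7 in the CNTL mice and 17.3, 17.4, 14.5, 18.4 and 15.1 in the HFHS mice without overlap (log2 fold change 0.47, SE 0.096, adjusted p = 0.0106). Msra, which repairs oxidized methionine, had 30.7 to 35.4 in the CNTL mice and 37.4 to 43.5 in the HFHS mice (1.21-fold, adjusted p = 0.00665). Cat, catalase, was measured at 130.3, 140.2, 147, 114 and 118 in the CNTL mice and 155, 183, 146, 155 and 148 in the HFHS mice, with overlap and with HFHS replicate 2 above the rest (log2 fold change 0.28, SE 0.071, adjusted p = 0.0395), and was called in 3 of 10 fits with 1 mouse left out. Prdx4, a peroxiredoxin of the endoplasmic reticulum, fell to 0.791 of its CNTL level (adjusted p = 0.0468, called in 2 of 10). Only 1 of the 31 was called in TPM as deposited, and it was lower. Of 17 selenoprotein genes, Gpx4 included, 0 were called by limma, with 2 at an unadjusted p under 0.05.

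Glutathione and Nrf2 genes had 2 calls of 37 (5.41%, against 3.34% of all genes), Me1 and Nqo1, and a median of -0.02. Nqo1, a quinone reductase, was measured at 28.9, 36.2, 30.5, 40.6 and 36.7 in the CNTL mice and 43.0, 51.2, 44.4, 42.4 and 54.4 in the HFHS mice without overlap (log2 fold change 0.44, SE 0.095, adjusted p = 0.0138). It was not called with TPM as deposited, with the 10 GPx4+/- mice fitted alone or without the 3 mice with raised atrial markers. Enzymes that clear reactive aldehydes had 2 of 35 called, both higher (5.71%), with a median of 0.02. They were Park7, a protein deglycase, with 131 to 164 in the CNTL mice and 169 to 189 in the HFHS mice (adjusted p = 0.00732), and Akr1b3, aldose reductase, with 162 to 189.8 in the CNTL mice and 194 to 229.8 in the HFHS mice (adjusted p = 0.0202, called in 6 of 10 fits with 1 mouse left out). This list had 3 calls in TPM as deposited, all lower.

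A list of 15 qRT-PCR targets held 11 genes that passed the filter on low values. Tfrc and Cat were called (18.2%, against 3.34% of all genes), as given above. Gsta1, a glutathione S-transferase, was measured at 3.71, 5.14, 2.14, 4.31 and 3.55 in the CNTL mice and 6.84, 8.60, 4.87, 8.13 and 6.79 in the HFHS mice, and did not pass (log2 fold change 0.84, SE 0.258, adjusted p = 0.0789). Tgfb1 had 10.3 to 11.9 in the CNTL mice and 10.1 to 13.8 in the HFHS mice (0.01, SE 0.093, adjusted p = 0.959) and Nos2 3.05 to 4.68 in the CNTL mice and 2.98 to 4.78 in the HFHS mice (0.07, SE 0.139, adjusted p = 0.84). Gpx1 (-0.19, adjusted p = 0.496), Gsr (0.13, adjusted p = 0.401) and Txn2 (0.05, adjusted p = 0.637) were not called either. Ager, Il1b, Il6 and Tnf stayed under 1 scaled TPM in all 10 mice and were not tested. The remaining inflammatory signals gave 0 calls of 20 tested, with 1 at an unadjusted p under 0.05.

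Of 30 hypertrophy and fetal genes, 3 were called higher and 1 lower (13.3% called, against 3.34% of all genes), and of 43 sarcomere and Z-disc genes 2 were called higher and 2 lower (9.30%). Ankrd23, a stretch-responsive titin-binding protein, was measured at 95.8, 208, 48.6, 192 and 209 in the CNTL mice and 316, 306, 285, 234 and 398 in the HFHS mice. CNTL replicates 1 and 3 were far under the other CNTL mice, and the groups did not overlap (log2 fold change 1.21, SE 0.308, adjusted p = 0.0384). Xirp2 (0.62, adjusted p = 0.0342) and Fhl1 (0.42, adjusted p = 0.0496) were also called higher, and with 1 mouse left out these 3 genes kept their calls in 4 of 10, 3 of 10 and 0 of 10 fits.

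Ttn, which encodes the giant spring protein titin, was measured at 113, 117, 103, 99.3 and 111 in the CNTL mice and 78.0, 88.0, 89.8, 78.3 and 89.6 in the HFHS mice, lower in every HFHS mouse (log2 fold change -0.36, SE 0.064, adjusted p = 0.00509). Myom2, an M-band protein gene, was measured at 308, 279.6, 441, 477 and 415 in the CNTL mice and 198, 242, 190.0, 300.3 and 173 in the HFHS mice, with overlap through HFHS replicate 4 (log2 fold change -0.80, SE 0.165, adjusted p = 0.0121). Nexn (0.28, adjusted p = 0.0227) and Myl12a (0.33, adjusted p = 0.0496) were higher and kept their calls in 6 of 10 and 3 of 10. The sarcomere list had 0 higher and 6 lower calls in TPM as deposited, so its balance rested on the scaling.

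Classic markers of cardiac load were not called, and Nppb, Acta1 and Nppa differed widely among mice of 1 group. Nppb had 4.89 to 169 in the CNTL mice and 48.5 to 104 in the HFHS mice (adjusted p = 0.83) and Myh7 a mean of 112 ± 12.2 in CNTL and 98.8 ± 20.5 in HFHS (SD, n = 5 each) (adjusted p = 0.807). Acta1, skeletal alpha actin, was measured at 91.6, 322, 4.56, 219 and 198 in the CNTL mice and 454, 268, 167, 294 and 496 in the HFHS mice, a log2 fold change of 1.77 with an SE of 0.821 (adjusted p = 0.256). Nppa was measured at 4354, 869, 127, 255 and 148 in the CNTL mice and 45.0, 129, 46.0, 1052 and 45.1 in the HFHS mice (log2 fold change -2.09, SE 0.984, adjusted p = 0.264), and its highest values were in CNTL replicates 1 and 2 and HFHS replicate 4, the mice with raised Myl7 and other atrial markers. None of 9 atrial markers tested was called by limma, with 1 at an unadjusted p under 0.05, and their median log2 fold change was -1.07, or -0.25 without those 3 mice. Their part in the fetal gene values was not tested.

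Ion channel genes gave 5 calls of 33 (15.2%, against 3.34% of all genes), which include the 2 leading genes Kcnj14 and Scn4b. Kcnip2, the subunit that carries the transient outward current with its potassium channel, was measured at 70.3, 83.2, 74.3, 84.2 and 74.4 in the CNTL mice and 60.1, 45.2, 50.0, 51.1 and 48.5 in the HFHS mice, lower in every HFHS mouse (log2 fold change -0.60, SE 0.114, adjusted p = 0.00665). Hcn4, the pacemaker channel gene, was measured at 2.60, 1.93, 2.62, 1.78 and 2.52 in the CNTL mice and 4.47, 2.57, 4.50, 5.55 and 3.53 in the HFHS mice (log2 fold change 0.71, SE 0.189, adjusted p = 0.0465), and Abcc8, a subunit of ATP-sensitive potassium channels, had 14.9 to 21.1 in the CNTL mice and 11.0 to 15.9 in the HFHS mice (adjusted p = 0.0474). Both overlapped between diets, Abcc8 with its highest value in CNTL replicate 1, and were called in 1 of 10 and 2 of 10 fits with 1 mouse left out.

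Calcium cycling genes had 4 calls of 33, all higher (12.1%, against 3.34% of all genes), with a median of 0.08, and 0 calls with TPM as deposited. Srl, a calcium-binding protein of the sarcoplasmic reticulum, was measured at 390.2, 434, 380.4, 401 and 405 in the CNTL mice and 529, 498, 490.0, 486 and 483 in the HFHS mice without overlap (log2 fold change 0.31, SE 0.051, adjusted p = 0.00304). Asph, whose locus also encodes the reticulum proteins junctin and junctate, had 71.6 to 93.0 in the CNTL mice and 101 to 117 in the HFHS mice (adjusted p = 0.0078) and Calm3, a calmodulin gene, 65.8 to 71.2 in the CNTL mice and 73.3 to 83.1 in the HFHS mice (adjusted p = 0.00546). Casq2, cardiac calsequestrin, was called at 0.25 (adjusted p = 0.046) in the fit on 20 mice and in 1 of 10 fits with 1 mouse left out.

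Collagen chains had a median log2 fold change of 0.26 against -0.00 over all genes, and 19 of 21 were positive against 49.6% of all genes. Only Col4a3, a basement membrane chain, was called (4.76%, against 3.34%), and it fell, with 1.95, 2.31, 3.03, 2.18 and 3.29 in the CNTL mice and 1.30, 1.49, 1.43, 1.28 and 1.56 in the HFHS mice (log2 fold change -0.66, SE 0.168, adjusted p = 0.0384) and a call in 2 of 10 fits with 1 mouse left out. Col1a1 had 17.5 to 20.4 in the CNTL mice and 18.9 to 31.3 in the HFHS mice (adjusted p = 0.623) and Col3a1 27.8 to 46.7 in the CNTL mice and 28.6 to 75.1 in the HFHS mice (adjusted p = 0.663), with HFHS replicate 5 highest for both. Of 25 collagen hydroxylases, chaperones and cross-linking enzymes 2 were called (8.00%), both alpha subunits of prolyl hydroxylase. Besides P4ha2, P4ha1 was measured at 16.5, 19.3, 12.8, 16.0 and 14.7 in the CNTL mice and 20.3, 20.0, 21.6, 18.8 and 25.8 in the HFHS mice, with overlap (log2 fold change 0.42, SE 0.102, adjusted p = 0.0314), and kept its call in 3 of 10 fits with 1 mouse left out. The collagen chaperone Serpinh1 did not overlap between diets and did not pass (0.34, adjusted p = 0.0556).

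Smoc2, a matricellular protein gene, was the 1 call among 41 matrix glycoproteins and proteoglycans (2.44%), with 22.2, 31.5, 25.4, 31.1 and 37.1 in the CNTL mice and 38.6, 40.3, 34.8, 39.1 and 47.3 in the HFHS mice and overlap through CNTL replicate 5 (log2 fold change 0.45, SE 0.107, adjusted p = 0.0249), and 37 of the 41 were positive. Smurf2, a ubiquitin ligase that acts on Smads, was the 1 call among 28 TGF-beta genes, or 3.57% (log2 fold change 0.29, adjusted p = 0.0468, called in 2 of 10 fits with 1 mouse left out). Of 19 metalloproteinases and inhibitors 0 were called by limma, with 2 at an unadjusted p under 0.05. Fibroblast markers summed to 829 to 1502 scaled TPM in CNTL and 997 to 1857 in HFHS, highest in HFHS replicate 4, with 10 of 10 positive, a median of 0.18 and 0 called. Their part in the matrix values was not tested.

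In the integrated stress response 3 of 27 genes were called, all higher (11.1%, against 3.34% of all genes). Mthfd2, a mitochondrial folate enzyme, was measured at 2.04, 2.40, 1.37, 2.19 and 1.48 in the CNTL mice and 3.77, 4.84, 2.68, 3.88 and 5.29 in the HFHS mice (log2 fold change 0.93, SE 0.164, adjusted p = 0.00483) and Atf5, a transcription factor of mitochondrial stress, at 21.2, 24.4, 18.9, 27.8 and 21.6 in the CNTL mice and 30.6, 35.1, 28.5, 29.3 and 34.4 in the HFHS mice (log2 fold change 0.47, SE 0.096, adjusted p = 0.0108). Neither overlapped, and Trib3 was the third. Heat shock proteins had 3 of 32 called, all higher (9.38%), a median of 0.12 and 26 positive. Hspb8, a small heat shock protein, was measured at 259, 315, 256, 329.7 and 323 in the CNTL mice and 409, 386, 366, 389 and 395 in the HFHS mice, and its partner Bag3 had 95.4 to 112 in the CNTL mice and 116 to 134 in the HFHS mice. Both lay higher in every HFHS mouse, with log2 fold changes of 0.40 (SE 0.071, adjusted p = 0.00509) and 0.30 (SE 0.055, adjusted p = 0.00546). Hspb6 was the other (0.24, adjusted p = 0.0358, called in 3 of 10 fits with 1 mouse left out), and with TPM as deposited none of the 32 was called. Atf6 was the 1 call among 29 endoplasmic reticulum genes (3.45%, near the share of all genes).

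Ulk2, a kinase that starts autophagy, rose 1.16-fold (adjusted p = 0.00665) and Ctsb, a lysosomal protease, 1.13-fold (adjusted p = 0.0108), the 2 calls of 33 autophagy and proteasome genes (6.06%, against 3.34% of all genes). Neither was called with TPM as deposited or with the 10 GPx4+/- mice fitted alone. Ctsb also lost its call with quantile normalization and without the 3 mice with raised atrial markers. Egln3, an oxygen-sensing prolyl hydroxylase, was measured at 27.9, 31.6, 26.0, 29.1 and 31.5 in the CNTL mice and 65.5, 38.7, 59.6, 37.0 and 73.4 in the HFHS mice and with Ldha made 2 calls of 25 angiogenesis and hypoxia genes (8.00%, and for Egln3 log2 fold change 0.85, SE 0.209, adjusted p = 0.0323). HFHS replicates 1, 3 and 5 were far above the other 2 for Egln3, and the call was kept in 4 of 10 fits with 1 mouse left out. Of 22 clock genes 2 were called lower (9.09%), Per1 (-0.40, adjusted p = 0.0428) and Cry2 (-0.24, adjusted p = 0.0496), both called in 3 of 10 fits with 1 mouse left out, and the hour of death per mouse is not given in the sources used here. Interferon-stimulated genes (34), antigen presentation (21) and the cell cycle (19) had 0 calls by limma, with 3, 1 and 2 at an unadjusted p under 0.05.

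**Figure D4:**
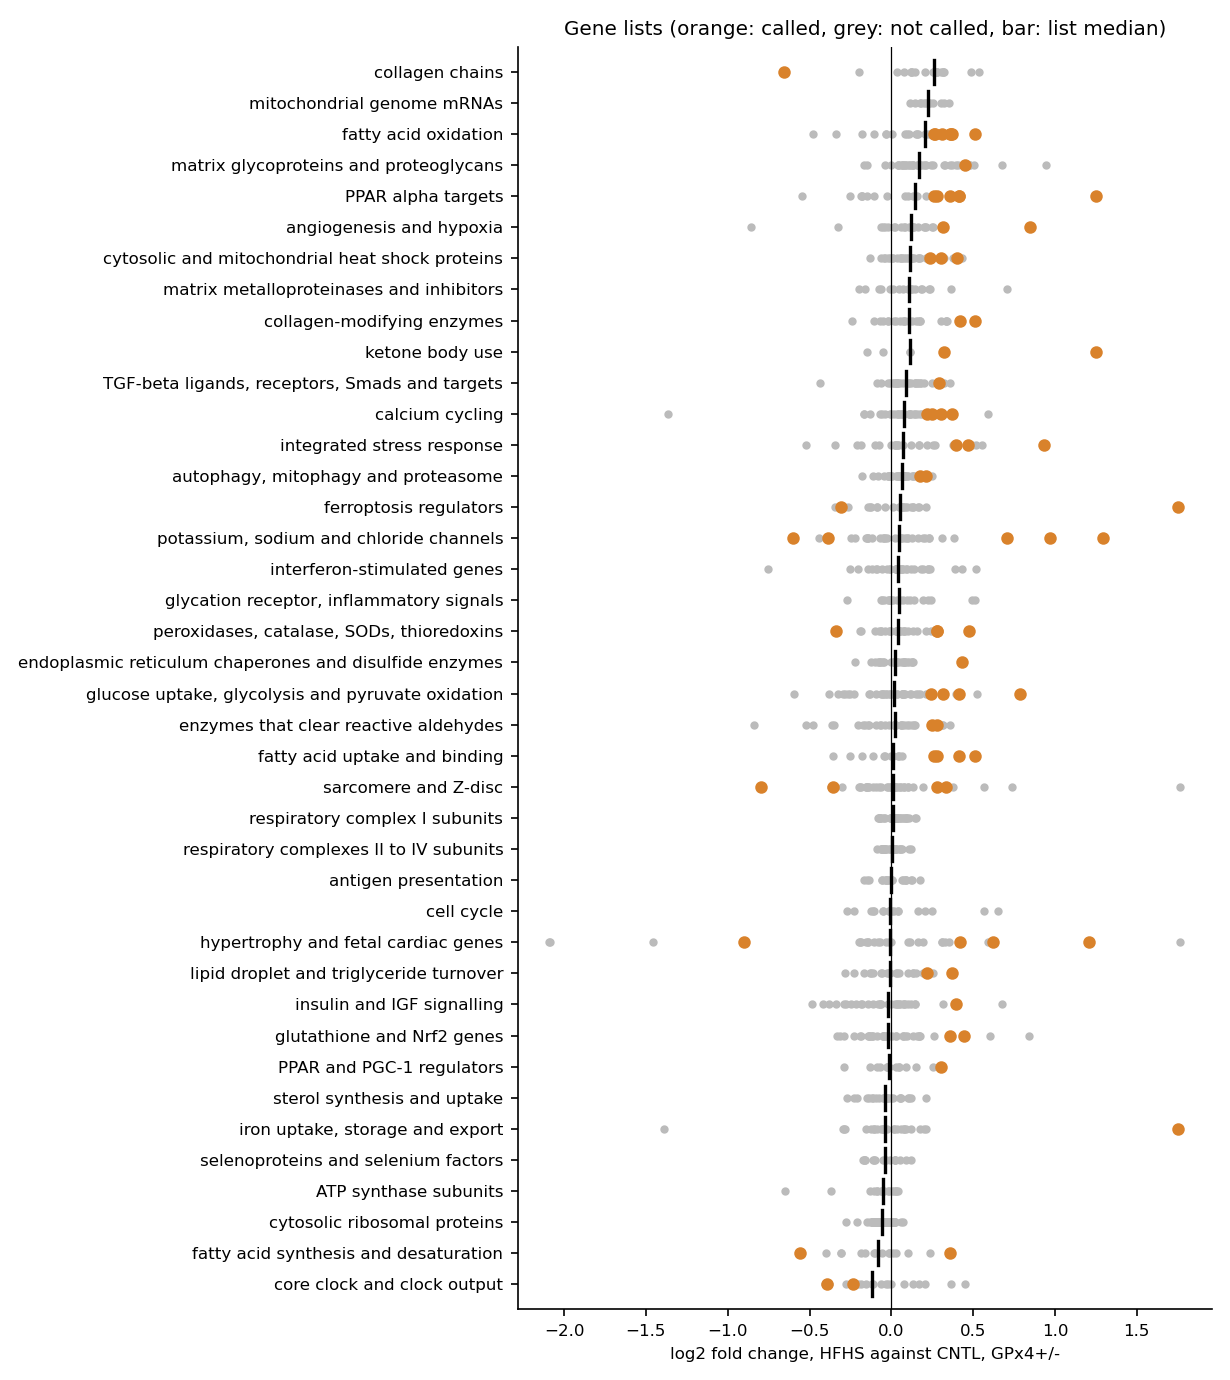
Log2 fold change, HFHS against CNTL in GPx4+/- hearts, of each gene tested in 40 lists, ordered by the list median (bar). Called genes are orange and others grey, collagen chains have the highest median (0.26) and clock genes the lowest (-0.12), and 12 lists hold no called gene.

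Set beside WT hearts, most genes called in GPx4+/- hearts changed in the same direction. In WT mice 142 of 11984 genes were called (1.18%), and the 74 genes called in both genotypes were 18.5% of the GPx4+/- calls and 52.1% of the WT calls. The WT count moved with the processing. It was 405 with array weights (394 in GPx4+/-) and 68 with a replicate block (306 in GPx4+/-). With no filter on low values it was 43 (235 in GPx4+/-), and with TPM as deposited 38 (424 in GPx4+/-). These counts therefore do not size the diet effect of 1 genotype against the other. Of the 400 genes called in GPx4+/-, 375 (93.8%) had the same sign in WT, against 62.9% of all genes tested. Their median size was 0.34 in GPx4+/- and 0.18 in WT, where a smaller size is built in because the genes were chosen on the GPx4+/- values. The 142 genes called in WT showed the same turn, at 0.42 in WT and 0.31 in GPx4+/-. Across the 11984 genes the 2 sets of log2 fold changes had a Pearson r of 0.37, a description over genes, which are not independent, from groups that share no mouse.

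The test of the difference itself called 0 of 11984 genes (0%) by limma, with a smallest adjusted p of 0.482 and 856 at an unadjusted p under 0.05, and it called 0 in each other way of processing except the fit of the 10 GPx4+/- mice alone, which cannot test it. No gene is therefore shown to respond to the diet differently in the 2 genotypes. Tfrc had a log2 fold change of 1.75 in GPx4+/- and 0.89 in WT (adjusted p = 0.114), a difference of 0.86 (SE 0.395, unadjusted p = 0.0431). The 5 genes with the smallest p for the difference were 0610009B22Rik, Mutyh, Akap9, Mrtfa and Cab39. Mutyh, a DNA repair glycosylase, was measured at 1.33, 1.40, 1.63, 1.51 and 1.39 in the CNTL mice and 0.771, 0.854, 0.791, 0.929 and 0.540 in the HFHS mice (log2 fold change -0.62, SE 0.111, adjusted p = 0.00546), whereas its log2 fold change in WT was 0.16. Cab39, a scaffold of the LKB1 kinase, had 33.0 to 35.3 in the CNTL mice and 37.9 to 40.5 in the HFHS mice (log2 fold change 0.21, adjusted p = 0.0109) and -0.07 in WT. 0610009B22Rik was called at 0.29 (adjusted p = 0.027, in 4 of 10 fits with 1 mouse left out) against -0.19 in WT. Akap9 (-0.17) and Mrtfa (-0.21) were not called in GPx4+/- and had 0.25 and 0.42 in WT.

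**Figure D5:**
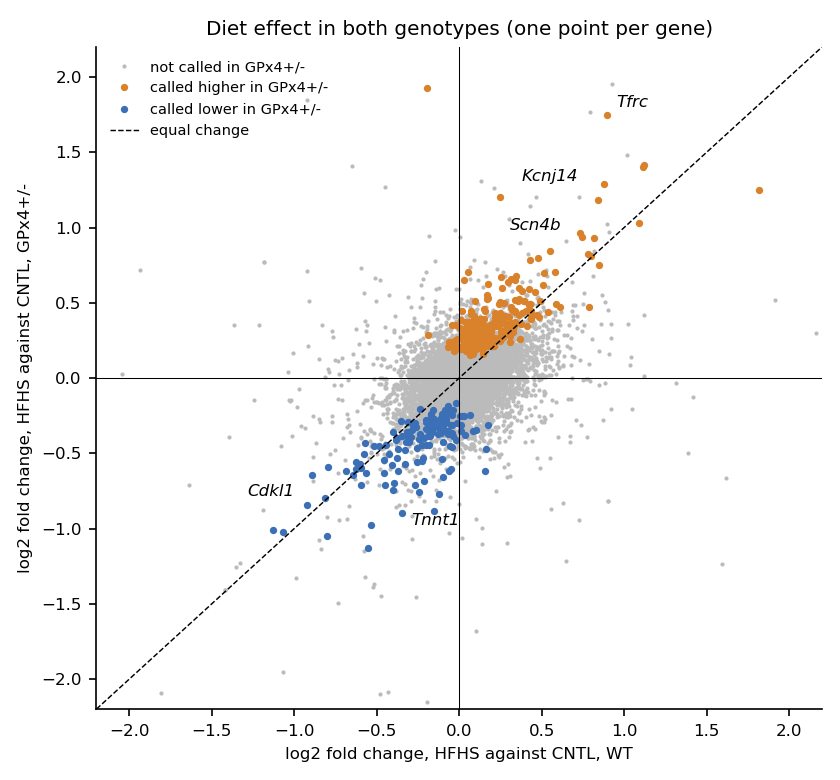
Log2 fold change, HFHS against CNTL, of each gene in GPx4+/- hearts (vertical axis) against WT hearts (horizontal axis), with genes called in GPx4+/- in orange (261 higher) and blue (139 lower) and the line of equal change dashed. Most called genes lie in the quadrants of equal sign (375 of 400), and 4 uncalled genes outside the axes are not drawn.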

How the data were processed

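Myocardial mRNA (left ventricle per the labels, mRNA libraries) was sequenced by the authors, who deposited TPM per transcript and library, each library summing to 1000000. The submitters' processing notes name kallisto 0.43.1, sleuth 0.30.0 and GRCm38, whereas the paper's methods describe STAR and DESeq2 for its own tests. Columns were matched to mice by the library name in the header (column positions stated with the samples differ from it and were left aside), and groups came from the labels. Of 119215 transcripts, 116772 matched GENCODE M21 and were summed to genes. A median-of-ratios factor per library, from 11879 genes, was divided out, and tests ran on the log2 of scaled TPM after 0.5 was added, so that fold changes of low genes come out too small. A gene entered the test if its scaled TPM averaged 1 or more across all 25 mice (11984 did). TPM is no count, so the 20 mice that received no carnosine were fitted as 4 groups with limma 3.58.1 (R 4.3.3), with p-values adjusted by the Benjamini-Hochberg method over all genes. The smallest permutation p, 0.00794, is that of 5 against 5.

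The comparison and the gene lists were chosen with earlier results of these data known. The genes named were the 12 higher and 12 lower called genes with the smallest p, the 5 largest changes each way, up to 4 called genes per list and direction, the qRT-PCR targets and the 5 smallest p for the genotype difference. A few genes that the rule names are not reported here. Others are said to be chosen after their values were seen, as are Etfdh, Acadl, Acadm, Ech1, Nppa, Nppb, Myh7, Myl7, Acta1, Col1a1, Col3a1 and Serpinh1. Alternatives are given in the closing section, where leaving out the mice with raised atrial markers was chosen after seeing the data.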

Additional observations from a re-analysis of the deposited data

Results flagged for a closer look

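Among 226 groups of 5 values (the genes named by the rule and the 14 marker sums, each diet apart), 16 held a mouse whose gap to its nearest neighbour exceeded 0.71 of the group's range, where chance alone gives about 1 in 20, or 11.3. CNTL replicate 1 stood high for atrial markers (summed scaled TPM 7608), endocardial and venous markers (133), mesothelial markers (13.1) and Abcc8 (21.1). CNTL replicate 2 stood high for hepatocyte markers (1355), CNTL replicate 3 low for Pfkl (44.9) and CNTL replicate 5 high for lymphocyte and neutrophil markers (19.4) and for Tfrc (6.29, still under every HFHS mouse). HFHS replicate 4 stood high for atrial (2825), fibroblast (1857) and mesothelial markers (5.50). HFHS replicate 2, with the highest mitochondrial share, stood high for Cd36 (1421) and Cat (183) and low for Calm3 (73.3). HFHS replicate 3 stood high for Fth1 (1545) and HFHS replicate 1 for Scgb1c1 (15.6).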

How the results depend on the processing

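Of 88 called genes named by the rule, none changed direction in any alternative, 55 kept their call with each mouse left out in turn and 30 in every alternative in which they were tested (6 of these were under the minimum of 5). The count of 400 (261 higher, 139 lower) became 235 (159 and 76) with no filter on low values, 124 (81 and 43) with the 10 GPx4+/- mice fitted alone and 218 (126 and 92) without the 3 mice with raised atrial markers. With TPM as deposited 37 were higher and 387 lower. With 1 mouse left out the count ranged from 191 to 484, higher genes from 130 to 281 and lower genes from 56 to 203. The Gpx4 difference ranged from 32.1 to 58.6 scaled TPM, with an unadjusted exact permutation p of 0.0238 without CNTL replicate 4, and limma called Gpx4 in none of the 20 alternatives (lowest adjusted p 0.107). Replicate numbers did not pair the mice (same-number correlations of -0.34 to 0.20), and a replicate block gave 306 calls (188 and 118). A pseudocount of 0.1, a minimum of 5, quantile normalization, all 25 mice and array weights gave 362 to 402 calls.

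Uncalled genes changed sign as follows. With TPM as deposited Tgfb1 had -0.09, Txn2 -0.05, Nos2 -0.02 and Fth1 -0.05. With 1 mouse left out Tgfb1 ranged from -0.06 (without HFHS replicate 5) to 0.05, with -0.01 without CNTL replicate 3, and Nppb ranged from -0.49 (without CNTL replicate 3) to 0.76. With array weights Nppb had -0.09. Without the 3 mice with raised atrial markers Angptl4 had 0.07 and Pdk4 0.12. The cause was not tested in any of these. TPM holds no depth, so low genes such as Kcnj14 have an unknown counting error.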

Other observations

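Called genes outside the lists included several of membrane repair and muscle structure, named here after their values were seen and without a test as a group. Capn3, a muscle calpain, was measured at 1.62, 1.33, 0.929, 1.34 and 1.33 in the CNTL mice and 2.78, 2.70, 2.42, 2.09 and 3.44 in the HFHS mice (log2 fold change 0.81, SE 0.129, adjusted p = 0.00243). Trim72, which seals damaged sarcolemma, had 133 to 181 in the CNTL mice and 206 to 243 in the HFHS mice (log2 fold change 0.44, adjusted p = 0.00664), and Dysf, its partner dysferlin, had 17.9 to 21.7 in the CNTL mice and 23.0 to 26.6 in the HFHS mice (log2 fold change 0.31, adjusted p = 0.0136). Trim72 and Capn3 did not overlap between diets, nor did Dysf. Sorbs2 and Nrap, of the Z-disc and intercalated disc, were also called (0.51 and 0.39, adjusted p = 0.0227 and 0.0498), Nrap in 2 of 10 fits with 1 mouse left out.

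The other called genes below were also named after their values were seen, with no test as a group. The cold-inducible genes Cirbp (-0.48, adjusted p = 0.0145) and Rbm3 (-0.36, adjusted p = 0.0314) and the splicing factor Srsf5 (-0.34, adjusted p = 0.014) were lower. Cirbp and Srsf5 overlapped between diets, and Rbm3 kept its call in 4 of 10 fits with 1 mouse left out. The amino acid enzymes that were lower included Kyat3 (-0.40, adjusted p = 0.00926), Gcdh (-0.30, adjusted p = 0.0128) and Bckdhb (-0.43, adjusted p = 0.0145), each without overlap between the diets, and none of them was called without the 3 mice with raised atrial markers, where the log2 fold change of Kyat3 was -0.41, that of Gcdh -0.28 and that of Bckdhb -0.46. Perm1 and Nfe2l1, a regulator of muscle energy genes and a regulator of proteasome genes, were higher (0.36 and 0.26, adjusted p = 0.00904 and 0.0135).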
